A study of Mus musculus with 12 samples.

Results

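Oxidative phosphorylation is carried out by 4 respiratory complexes and the ATP synthase (complex V) of the inner mitochondrial membrane. Genes of this machinery were taken as the protein-coding genes whose symbols begin with Nduf, Uqcr, Cox4 to Cox8 or Atp5, together with Sdha to Sdhd, Cycs, Cyc1 and the protein-coding genes of the mitochondrial genome. In the GENCODE annotation of GRCm38, 109 protein-coding genes met this rule, and 99 of them had at least 30 reads summed over the 12 libraries. These 99 genes were part of 15138 genes tested with the same limit, and 90 were nuclear-encoded and 9 mitochondrially encoded. The nuclear genes were 36 subunits of complex I, 8 complex I assembly factors (the Ndufaf genes), 4 of complex II, 9 of complex III, 15 of complex IV, 16 of complex V, cytochrome c (Cycs) and Atp5s, a factor B gene that carries the Atp5 name. The last genes inside the limit were mt-Atp6, with 60 reads, and Cox6a2, with 58 reads, and the first outside it were Cox4i2, with 24 reads, and mt-Co2, with 23 reads.

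The 12 libraries came from CD4+ T cells of the spleen, 1 library per mouse and 3 mice per group, and the mice were young adult Tg4 Nr4a3-Tocky Il10-GFP animals of both sexes. Every mouse carries the transgenic Tg4 T cell receptor, which recognises a myelin basic protein peptide, the Nr4a3-Tocky Timer reporter, whose blue form matures to red, and the Il10-GFP reporter. Only responders, cells positive for both blue and red forms, were sequenced, so the libraries hold 1 gated fraction of a monoclonal response and not the whole spleen. The [4Y]-MBP peptide was given to every animal at 4 mg/kg, antibody (0.5 mg) followed after 24 h, a second peptide dose of 0.4 mg/kg came 30 min after the antibody, and the spleens were collected when a further 12 h had passed. The 4 groups differed in that antibody, which was a pool of isotype controls (isotype), anti-Lag3 alone, anti-PD-L1 alone, or co-blockade with both (CB). For sorting, each group was also stained with a CD4 antibody carrying its own label, so label and treatment cannot be told apart. Whether energy metabolism genes differ between these groups was asked by complex and by genome of origin.

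Electrons from NADH enter at complex I and those from succinate at complex II, pass through complex III and cytochrome c to complex IV, and the proton gradient that results drives ATP synthesis by complex V. Most subunits are encoded in the nucleus and imported, whereas a small core of complexes I, III, IV and V is encoded in mitochondrial DNA. Activated T cells are known to enlarge their mitochondria and to raise glycolysis and respiration together as they grow.

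Libraries were made from the 3′ ends of mRNA without molecular identifiers, and 16449370 to 22151025 reads per library were counted on genes. Values are CPM (reads of a gene scaled to a common library total) on TMM-scaled library sizes, differences are log2 fold changes from edgeR's quasi-likelihood test with 1 fit of 4 group means, and a gene is called at an adjusted p under 0.05 over all 15138 genes (Benjamini-Hochberg). Sums of cell type markers are the exception, given as CPM on total gene reads without TMM scaling. Summed CPM of 6 CD4 T cell markers (Cd3d, Cd3e, Cd3g, Cd4, Trac and Nr4a3, all detected) lay between 1377 and 1758 and were lower in CB (1377 to 1516) than in isotype (1705 to 1758). Among them, Cd4 had 6184, 5014 and 5224 unscaled reads in isotype and 4250, 4453 and 4375 in CB. Unscaled reads of Trac overlapped (7760, 5986 and 7541 in isotype, 6474, 8118 and 8554 in CB). The paper names Cd4 itself as downregulated. Markers of other cells were B cell (6 of 6 detected, 324 to 469 CPM), erythroid (6 of 6, 152 to 478), CD8 T cell (2 of 2, 24.2 to 48.0), myeloid (5 of 6, 4.06 to 20.8, with Cd14 at 0 reads), NK cell (3 of 3, 0 to 4.63) and platelet (3 of 3, 0 to 3.26). Erythroid markers summed to 240 to 478 CPM in isotype and 152 to 195 in CB, and the part of these marker differences in the results was not tested. In sorted bulk cells, fewer cells of a type and less RNA per cell cannot be told apart.

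The 3′ ends of the mitochondrial genes bear on which of them could be counted, since only uniquely mapped reads were kept and the nuclear genome holds copies of mitochondrial DNA. Of the 13 mitochondrial protein genes, 9 passed the limit, mt-Co2 had 23 reads, and mt-Co3, mt-Nd4l and mt-Atp8 had 0 reads in all 12 libraries, each allowing up to 3 reads per library (counting error only). Each final stretch of 300 bases was cut into 50-base windows and searched in all other annotated transcripts. In 6 genes at least 50% of windows also lay in another gene, the closest copy being in each case an unprocessed pseudogene on chromosome 1: mt-Co1 (100%), mt-Co2 (100%), mt-Co3 (99.6%), mt-Nd3 and mt-Atp6 (both 98.8%) and mt-Nd4l (98.8%). The 60 bases near the 3′ end of mt-Co3, a gene without reads, and of mt-Nd3, a gene with few, are shown with their nuclear copies, and those of the well-counted mt-Cytb, which had no shared window, for contrast (GENCODE transcripts, GRCm38, 5′ to 3′, no letter capitalised because the pairs have 0 differences).
mt-Co3, chrM:9330-9389, plus strand: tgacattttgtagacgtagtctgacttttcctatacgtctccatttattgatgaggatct
Gm28437, chr1:24613189-24613248, minus strand: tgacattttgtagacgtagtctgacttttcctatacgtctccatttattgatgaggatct
mt-Nd3, chrM:9744-9803, plus strand: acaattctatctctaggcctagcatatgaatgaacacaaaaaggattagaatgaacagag
Gm28438, chr1:24612775-24612834, minus strand: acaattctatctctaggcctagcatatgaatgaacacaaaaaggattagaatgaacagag
mt-Cytb, chrM:15229-15288, plus strand: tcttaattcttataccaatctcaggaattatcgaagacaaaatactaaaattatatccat
Among the 5 genes with no shared window were mt-Nd4 with 1096049 reads, mt-Nd1 with 1023499 and mt-Cytb with 726275, but also mt-Atp8 with 0 reads and mt-Nd6 with 4225. mt-Co1 had 115751 reads although all of its searched windows were shared, so the windows do not account for every count. mt-Atp8 (chrM:7766-7969) overlaps the start of mt-Atp6 (7927-8607), and mt-Nd4l (9877-10173) that of mt-Nd4 (10167-11544), each pair on the same strand. Whether mt-Atp8 and mt-Nd4l have a 3′ end of their own to count was not tested. Low or absent counts of mt-Co2, mt-Co3, mt-Nd3, mt-Nd4l, mt-Atp6 and mt-Atp8 therefore cannot be read as low transcript levels.

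**Figure D1:**
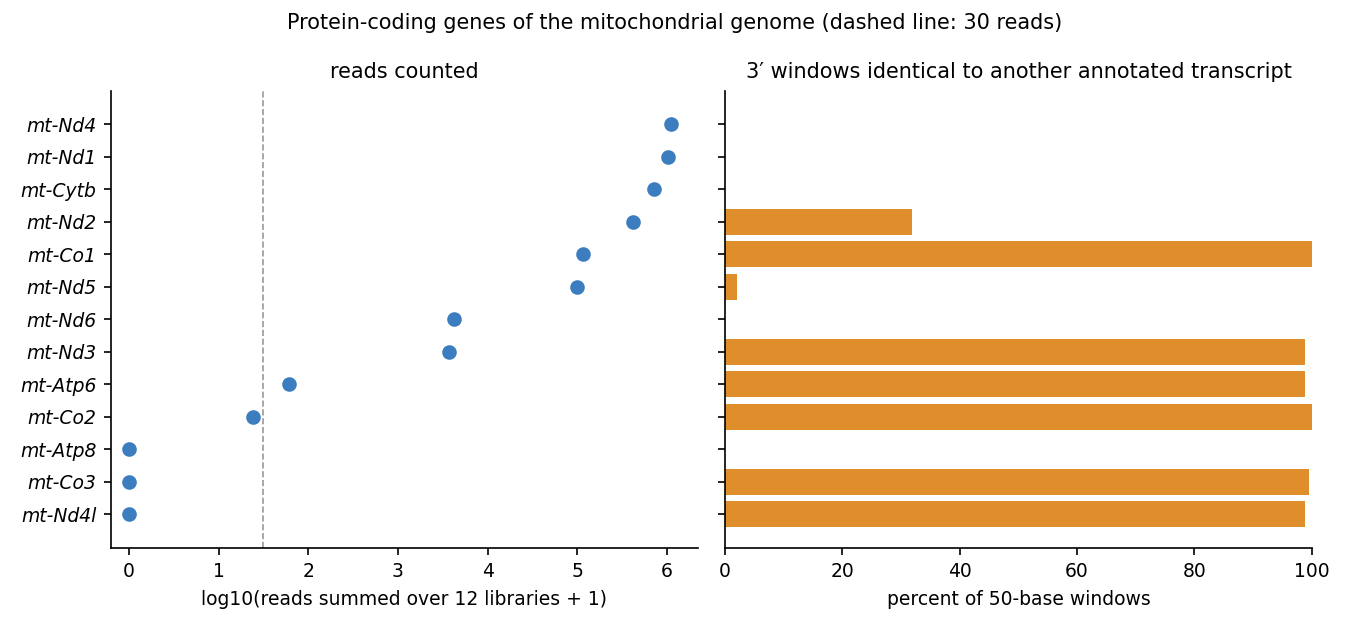
The 13 protein-coding genes of the mitochondrial genome, ordered by reads. Left, log10 of the reads summed over 12 libraries plus 1, with the limit of 30 reads dashed; right, percent of the 50-base windows in the last 300 bases that are identical to another annotated transcript. Of the 6 genes with over 50% shared, mt-Co1 had 115751 reads and the others 3700 or fewer.

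The mitochondrially encoded genes took a similar share of reads in all groups. Reads on the 9 genes were 1.74%, 1.26% and 1.52% of gene reads in the isotype mice and 1.38%, 1.75% and 1.64% in the anti-Lag3 mice. They were 1.52%, 1.34% and 1.56% in the anti-PD-L1 mice and 1.11%, 1.73% and 1.46% in the CB mice. The groups overlapped throughout, and the means (isotype 1.504% ± 0.240, anti-Lag3 1.59% ± 0.193, anti-PD-L1 1.47% ± 0.119, CB 1.43% ± 0.310; SD, n = 3) differed by less than their spread. Reads on the 90 nuclear genes varied less, from 1.73% to 1.97% over the 12 libraries, with means of 1.87% ± 0.0825 in isotype, 1.87% ± 0.0298 in anti-Lag3, 1.87% ± 0.0897 in anti-PD-L1 and 1.77% ± 0.0635 in CB. Mitochondrial reads per nuclear read were 0.803 ± 0.103 in isotype, 0.851 ± 0.102 in anti-Lag3, 0.789 ± 0.0952 in anti-PD-L1 and 0.804 ± 0.149 in CB (SD, n = 3). The lowest and the second highest ratio of all 12 libraries, 0.642 and 0.935, both came from CB mice, numbers 1 and 2.

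**Figure D2:**
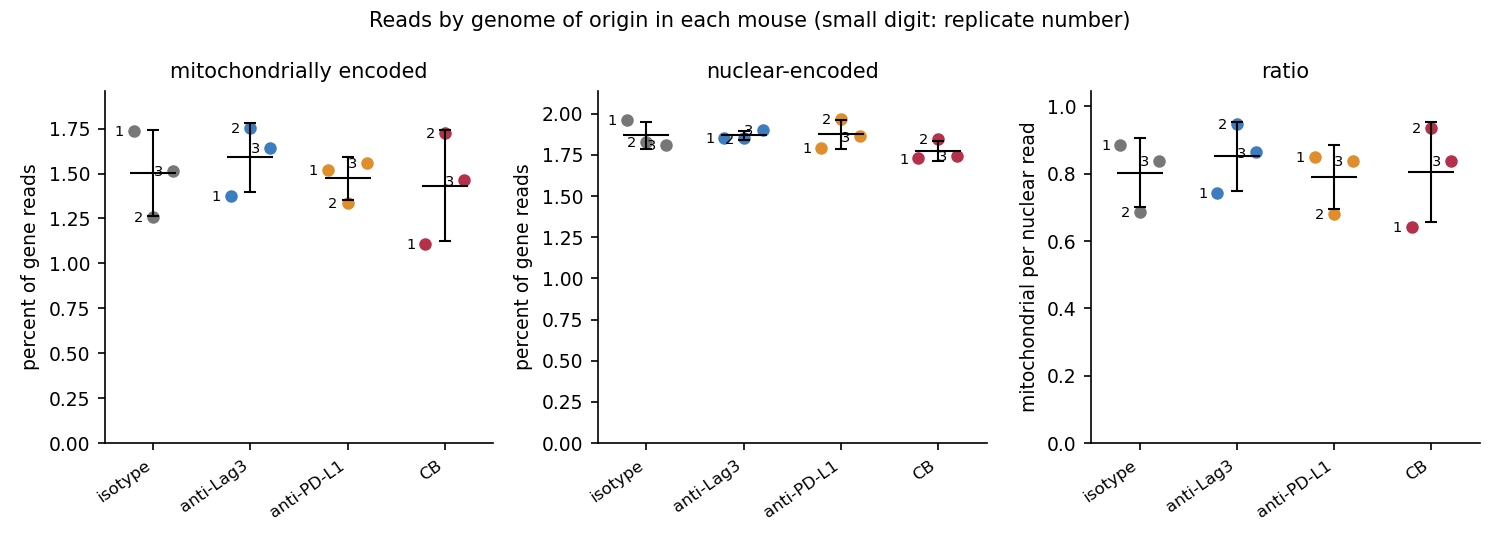
Reads on mitochondrially encoded genes (left) and nuclear-encoded genes (middle) as percent of gene reads, and their ratio (right), in each mouse, with group mean and SD (n = 3). The mitochondrial share spans 1.11% to 1.73% within the CB group alone, against 1.11% to 1.75% over all 12 mice.

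The spread in the mitochondrial share went with single mice. Of the 6 mitochondrial genes whose mean count reached 1000 (mt-Nd1, mt-Nd2, mt-Nd4, mt-Nd5, mt-Cytb and mt-Co1), CB mouse 1 had the lowest CPM of its group in 6 and the lowest of all 12 mice in 5. That library also gave the largest share of reads to a single gene without a symbol in GENCODE vM21, ENSMUSG00000119584. The share was 21.9%, against 14.3% in isotype mouse 1, whose mitochondrial share was the highest of its group. The part of that gene in the mitochondrial share was not tested beyond leaving it out of the total, which gave 1.42% in CB mouse 1 and 2.03% in isotype mouse 1. The nuclear share without that gene was 2.29%, 2.31% and 2.22% in isotype mice and 2.21%, 2.20% and 2.16% in CB mice, which did not overlap, while with that gene they did. Within groups, the SD of log2 CPM had a median of 0.21 over these 6 genes, against 0.14 over the 75 nuclear members and 0.16 over all 3127 genes with that mean count.

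The subunits encoded in mitochondrial DNA did not pass the test in any comparison. mt-Nd1, a complex I core subunit, measured 4682, 3758 and 4313 CPM in isotype mice, 4110, 4844 and 4618 in anti-Lag3, 4978, 3946 and 4719 in anti-PD-L1 and 3746, 4343 and 4654 in CB. The groups overlapped, and the log2 difference between CB and isotype was -0.00 with a 95% interval from -0.18 to 0.18. mt-Cytb, the only complex III subunit of the mitochondrial genome, measured 3655, 2836 and 3228 CPM in isotype and 2254, 3602 and 2860 in CB, a log2 difference of -0.16 (interval -0.40 to 0.08). For mt-Co1, the catalytic subunit of complex IV, 535, 421 and 457 CPM in isotype stood against 432, 514 and 537 in CB, a difference of 0.07 (interval -0.15 to 0.28).

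The remaining complex I genes of the mitochondrial genome fell into well and poorly counted ones. Log2 differences between CB and isotype were 0.01 for mt-Nd2, -0.03 for mt-Nd4 and 0.05 for mt-Nd5, all with intervals inside 1.5-fold. mt-Nd6, the gene on the other strand, measured 22.5, 9.75 and 14.0 CPM in isotype and 18.7, 24.2 and 22.8 in CB, a difference of 0.50 (SE 0.32, adjusted p = 0.455, edgeR). mt-Nd3 measured 21.5, 15.4 and 30.0 CPM in isotype and 7.23, 18.3 and 3.09 in CB, a difference of -1.23 (SE 0.51, adjusted p = 0.228, edgeR). Its groups overlapped, its 3′ end is the shared one printed above, and without CB mouse 2 the difference was -2.11 with an adjusted p of 0.0341 (edgeR). mt-Atp6, of the ATP synthase, had 36 reads in anti-PD-L1 mouse 1, 12 and 11 in anti-Lag3 mice 2 and 3, 1 in isotype mouse 1 and 0 in the other 8, so no fold is given.

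Between CB and isotype, the comparison with the most differences in these libraries, 3 of the 99 genes were called (3.03%, with 4.29% of all genes tested called). The 2 higher ones (2.33% of all genes were called higher) were complex I assembly factors, Ndufaf4 and Ndufaf6, and the lower one (1.96% of all genes were called lower) was Ndufa3, an accessory subunit of complex I. Apart from these, no subunit of complexes II to V, no cytochrome gene and no mitochondrially encoded gene was called by edgeR, whereas 13 of the 99 had an unadjusted p under 0.05 (14.9% of all genes did). DESeq2's Wald test called 6 of the 99 and 918 of all genes, the same 3 and Ndufaf3, Ndufb3 and Ndufc2, all 3 lower and all of complex I or its assembly. CPM of the 3 CB mice lay outside those of the 3 isotype mice in 23 of the 99 genes, 9 higher and 14 lower, where 20.0% of all genes did so (10.4% higher, 9.62% lower). The log2 difference was above 0 in 43 of the 99 and in 48.8% of all genes.

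**Figure D3:**
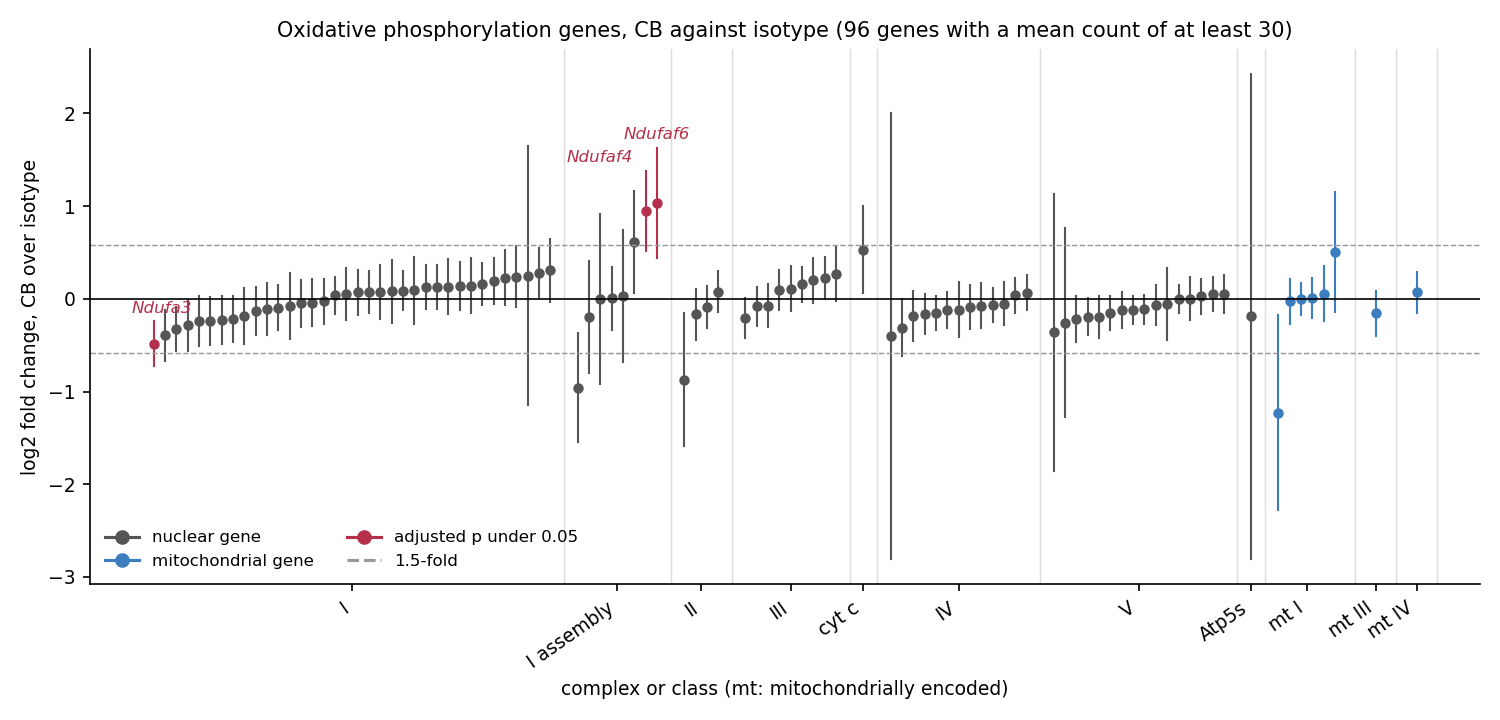
Log2 fold change between CB and isotype with its 95% interval for the 96 genes whose mean count reached 30, sorted within each complex; grey is nuclear, blue mitochondrial, red an adjusted p under 0.05, and dashed lines mark 1.5-fold. Most intervals lie between the dashed lines. The estimates of Ndufaf2, Ndufaf4 and Ndufaf6 stand above them, and those of mt-Nd3, Ndufaf3 and Sdhd below.

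These genes are deeply counted. The median SE of the 99 log2 differences was 0.12, against 0.42 over all genes tested, and in 76 of the 99 the whole 95% interval lay within 1.5-fold in either direction. Among genes whose mean count reached 1000, a limit chosen after the values were seen, 1 of 81 members was called (1.23%), against 454 of 3127 genes (14.5%). The median log2 difference of those 81 was -0.03 and that of the 3127 was 0.03. Without overlap between CB and isotype, 6 of the 81 were higher and 13 lower, against 686 higher and 544 lower of the 3127. An unadjusted p under 0.05 (edgeR) was found in 7 of the 81 and in 1102 of the 3127.

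Ndufaf4 acts early in complex I assembly, in a pair with Ndufaf3. The gene (ENSMUSG00000028261, GRCm38 chr4:24898083-24905001, plus strand) had 11182 reads in all and measured 41.7, 26.2 and 39.5 CPM in isotype mice, 43.1, 42.0 and 38.8 in anti-Lag3, 38.7, 41.4 and 49.6 in anti-PD-L1 and 74.7, 46.0 and 86.5 in CB. CB mice 1 and 3 were above every other mouse, and CB mouse 2 was above the isotype and anti-Lag3 mice but inside the anti-PD-L1 range. From isotype to CB it rose by a log2 difference of 0.95 (SE 0.21, adjusted p = 0.00725, edgeR). The differences from anti-PD-L1 (0.68, adjusted p = 0.219) and from anti-Lag3 (0.74, adjusted p = 0.109) did not pass the test in edgeR, nor did the single antibodies against isotype (0.27 and 0.20).

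Ndufaf6, a factor needed for an early step of complex I assembly (ENSMUSG00000050323, chr4:11051045-11076205, minus strand), measured 19.6, 10.4 and 11.9 CPM in isotype mice, 25.5, 16.3 and 18.4 in anti-Lag3, 27.3, 27.6 and 16.0 in anti-PD-L1 and 30.3, 30.4 and 25.3 in CB. All CB mice were above all isotype mice, and the single-antibody mice lay between and overlapped both. It rose by 1.04 (SE 0.29, adjusted p = 0.0362, edgeR) in CB, with 0.76 in anti-PD-L1 (adjusted p = 0.525) and 0.52 in anti-Lag3 (adjusted p = 0.805) against the same isotype mice. Both calls end when CB mouse 3 or isotype mouse 2 is left out. For Ndufaf4 the differences were then 0.75 (adjusted p = 0.0935, edgeR) and 0.77 (0.0624), and for Ndufaf6 1.12 (0.0640) and 0.86 (0.186), and the Ndufaf6 call also ends without CB mouse 1 (0.99, 0.112), CB mouse 2 (0.99, 0.104) or isotype mouse 3 (0.93, 0.132).

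The other 6 Ndufaf genes did not move one way. Ndufaf3, the partner of Ndufaf4, measured 25.2, 34.8 and 25.5 CPM in isotype mice and 12.4, 22.4 and 9.13 in CB, without overlap, a difference of -0.96 (SE 0.29, adjusted p = 0.0531, edgeR). Anti-Lag3 mice (23.1, 18.7 and 23.0) and anti-PD-L1 mice (29.5, 23.8 and 22.9) lay above the highest CB mouse, except for anti-Lag3 mouse 2. Ndufaf3 overlaps Impdh2 on the opposite strand, whose 52621 reads are many more than the 5139 of Ndufaf3 and whose difference was 0.33 (adjusted p = 0.0641, edgeR), and the strand setting of the counting is not stated. Without CB mouse 2, the difference of Ndufaf3 was -1.41 with an adjusted p of 0.00585 (edgeR). It was also called lower in 6 of 10 other fits with all mice, among them edgeR with a replicate block (adjusted p = 0.0209) and at a mean count of 30 or more (adjusted p = 0.0406). Ndufaf2, a chaperone of late complex I assembly, measured 14.6, 17.9 and 18.5 CPM in isotype mice and 28.9, 29.1 and 19.9 in CB, a difference of 0.61 (SE 0.27, adjusted p = 0.260, edgeR). It overlaps Smim15 on the opposite strand, with 11117 reads against 5191. Over the 8 Ndufaf genes, 5 differences were above 0 and 3 below, with a median of 0.02.

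**Figure D4:**
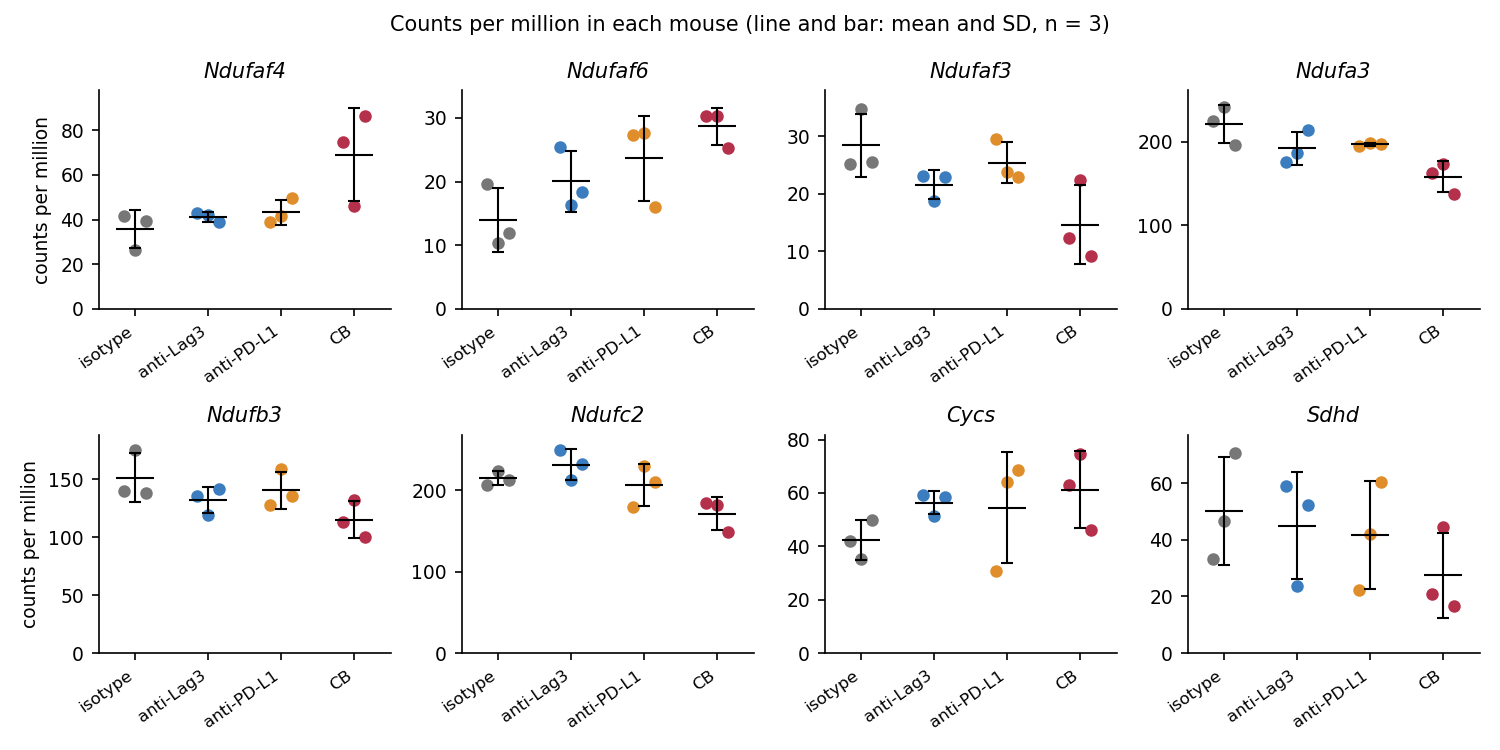
CPM in each mouse for 8 genes (points), with group mean and SD (bars, n = 3); each axis starts at 0. In Ndufaf4 and Ndufaf6 the 3 CB mice are above the 3 isotype mice, in Ndufaf3, Ndufa3, Ndufb3 and Ndufc2 they are below, and in Cycs and Sdhd the groups overlap.

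Nuclear complex I subunits split evenly around 0 between CB and isotype, 20 above and 16 below, with a median log2 difference of 0.06, and 36 of 36 estimates were within 1.5-fold. Ndufa3, an accessory subunit of the membrane arm (ENSMUSG00000035674, chr7:3617373-3620327, plus strand), measured 225, 242 and 197 CPM in isotype mice, 176, 187 and 214 in anti-Lag3, 196, 199 and 198 in anti-PD-L1 and 163, 174 and 138 in CB. Every CB mouse was below every mouse of the other 3 groups. It fell by 0.48 on the log2 scale between isotype and CB (SE 0.12, adjusted p = 0.0125, edgeR), and the call ends without CB mouse 3 (-0.39, adjusted p = 0.122) or isotype mouse 2 (-0.42, adjusted p = 0.0932). The difference of CB from anti-PD-L1 was -0.32 (adjusted p = 0.334) and that from anti-Lag3 -0.28 (adjusted p = 0.405), neither past the threshold in edgeR.

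A further pair of membrane arm accessory subunits lay below isotype in every CB mouse. Ndufb3 measured 140, 176 and 138 CPM in isotype and 113, 132 and 100.2 in CB, a difference of -0.39 (SE 0.13, adjusted p = 0.107, edgeR). Ndufc2 measured 207, 224 and 213 CPM in isotype and 184, 182 and 148 in CB, a difference of -0.33 (SE 0.12, adjusted p = 0.129, edgeR). At the other end stood Ndufab1, the mitochondrial acyl carrier protein, with 86.6, 88.1 and 87.0 CPM in isotype and 107, 102 and 109 in CB (0.28, adjusted p = 0.295). Ndufb2, another accessory subunit, had a difference of 0.31 (adjusted p = 0.385) with overlapping groups. The 7 nuclear core subunits, which carry the flavin and the iron-sulphur clusters, had a median of 0.07 and a range from -0.24 to 0.24, and none was called.

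In complex II, which also works in the citric acid cycle, 1 difference was above 0 and 3 were below. The catalytic subunits Sdha (-0.09, interval -0.32 to 0.14) and Sdhb (0.08, interval -0.14 to 0.30) were tightly bounded, as was the membrane anchor Sdhc (-0.17, interval -0.44 to 0.11). Sdhd, the other anchor, measured 33.1, 46.8 and 70.5 CPM in isotype mice, 59.1, 23.7 and 52.3 in anti-Lag3, 22.4, 42.2 and 60.6 in anti-PD-L1 and 21.0, 44.6 and 16.6 in CB. The mice of each group were far apart and the groups overlapped, and its difference of -0.87 (SE 0.35) had an adjusted p of 0.204 (edgeR). Without CB mouse 2 it was -1.41 with an adjusted p of 0.0339 (edgeR).

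In complex III 6 of 9 nuclear subunits were above 0 and 3 below, with a median of 0.11, and in 9 of 9 the interval lay within 1.5-fold. Uqcr11, a small accessory subunit, measured 94.4, 86.2 and 79.7 CPM in isotype and 98.2, 102 and 114 in CB (0.27, adjusted p = 0.379, edgeR). Cyc1, cytochrome c1, measured 150, 159 and 139 CPM in isotype and 185, 144 and 186 in CB (0.20, adjusted p = 0.422). The 3 complex III genes without overlap between CB and isotype were all higher, where 10.4% of all genes were higher without overlap and 9.62% lower.

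Cycs, the mobile carrier between complexes III and IV, measured 41.8, 35.1 and 50.03 CPM in isotype mice, 59.1, 51.3 and 58.6 in anti-Lag3, 30.7, 64.0 and 68.7 in anti-PD-L1 and 62.9, 74.7 and 46.0 in CB. CB and isotype overlapped, since CB mouse 3 was below isotype mouse 3. The difference was 0.53 (SE 0.23, adjusted p = 0.240, edgeR), with an interval from 0.07 to 1.00. Against the same isotype mice it was 0.37 for anti-PD-L1 (adjusted p = 0.609) and 0.41 for anti-Lag3 (adjusted p = 0.805).

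In complex IV 13 of 15 nuclear subunits were below 0 (among them Cox6a2 and Cox7a1, which had few reads), with a median of -0.12, and none was called by edgeR or DESeq2, with 1 unadjusted p under 0.05. Several subunits exist as isoforms that differ between tissues, and the common isoform carried nearly all reads in each set. Cox4i1 (-0.05) had a mean of 6745 reads per library, while Cox4i2, the isoform of lung, had 24 reads in all, 23 of them in anti-PD-L1 mouse 3. Cox6a1 (-0.15) measured 433, 482 and 442 CPM in isotype and 428, 403 and 389 in CB, whereas its heart and muscle isoform Cox6a2 had reads in 3 libraries (14 in isotype mouse 2, 24 and 20 in anti-Lag3 mice 2 and 3). Cox7a2 (0.06) stood beside the muscle isoform Cox7a1, which had 0 to 99 reads per library, 0 in 4 of 12. Cox7a2l, a relative that links complexes III and IV, measured 99.1, 137 and 100.5 CPM in isotype and 91.8, 94.3 and 85.0 in CB, without overlap (-0.31, SE 0.15, adjusted p = 0.332, edgeR).

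Testis and muscle isoforms were at or near 0. Cox6b1 differed by -0.09, and its testis isoform Cox6b2 lay at 0.05 to 4.15 CPM, with an interval of -2.81 to 2.01 that bounds nothing. Cox7b (-0.07) and Cox8a (-0.12) had adjusted p-values of 0.895 and 0.811, and Cox7b2, Cox8b and Cox8c had 0 reads in all 12 libraries. Ndufa4, named for complex I but now placed in complex IV, differed by -0.19 (adjusted p = 0.529), and its hypoxia-induced relative Ndufa4l2 had 7 reads, all in CB mouse 2.

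In complex V 12 of 16 nuclear subunits were below 0, with a median of -0.12, and 16 of 16 estimates were within 1.5-fold. The 5 subunits of the catalytic F1 head (Atp5a1, Atp5b, Atp5c1, Atp5d and Atp5e) were all below 0, from -0.19 to -0.07. Of these, 3 were lower without overlap, where 9.62% of all genes were. None of the 5 subunits was called, in edgeR or DESeq2, or had an unadjusted p under 0.05. They were also all below 0 in anti-PD-L1 (median -0.03) and anti-Lag3 (median -0.08) against the same isotype mice, where CB gave a median of -0.12. Reads summed over the nuclear complex V genes were 6643 ± 125 CPM in isotype, 6483 ± 153 in anti-Lag3, 6643 ± 236 in anti-PD-L1 and 6308 ± 64.5 in CB (SD, n = 3). The CB mice (6233 to 6347) were below every other mouse, the lowest of which was anti-Lag3 mouse 2 (6380). The corresponding sums for complex IV were 4056 ± 158, 3872 ± 94.5, 4065 ± 284 and 3841 ± 149, and for complex I 4948 ± 180, 4894 ± 159, 5120 ± 222 and 4865 ± 84.8. The 3 genes of the membrane c subunit yield the same mature protein, and their differences were -0.06 for Atp5g1, -0.26 for Atp5g2 (2.93 to 14.4 CPM) and -0.00 for Atp5g3, whose interval of -0.15 to 0.15 was narrow. Atp5l, subunit g, lay at 0.18 to 12.3 CPM and 70.1% of its 3′ windows are shared with other genes, so its difference of -0.36 (SE 0.72) is uncertain.

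With edgeR's fit of 4 group means no member was called outside the comparison of CB with isotype, and the 3 comparisons with isotype share their control mice. edgeR called 0 of the 99 for anti-PD-L1 against isotype (0.0330% of all genes called), with 5 at an unadjusted p under 0.05 (7.84% of all genes) and 0 by DESeq2. For anti-Lag3 against isotype it called 0 (0% of all genes), with 3 at an unadjusted p under 0.05 (5.21%) and 0 by DESeq2. CB against anti-PD-L1 gave 0 calls (0.370% of all genes), 9 at an unadjusted p under 0.05 (9.08%) and 1 by DESeq2 (Ndufa7), and CB against anti-Lag3 gave 0 calls (0.694%), 7 at an unadjusted p under 0.05 (9.46%) and 1 by DESeq2 (Ndufc2). Anti-PD-L1 against anti-Lag3 gave 0 calls (0% of all genes), 5 at an unadjusted p under 0.05 (4.69%) and 0 by DESeq2. The interaction, CB minus both single antibodies plus isotype, gave 0 calls (0%), 4 at an unadjusted p under 0.05 (5.93%) and 0 by DESeq2. These counts hold for the fit described above. With a replicate block edgeR called Ndufa7 lower in CB than in anti-PD-L1 (-0.57, adjusted p = 0.0225) and Ndufc2 lower in CB than in anti-Lag3 (-0.44, adjusted p = 0.0304). With no filter on low counts it called Ndufa7 and Ndufaf4 against anti-PD-L1 and Ndufaf4, Ndufc2, Sdhd and mt-Nd3 against anti-Lag3, and at a mean count of 30 or more it called Ndufa7 against anti-PD-L1.

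Medians by complex lay between -0.13 and 0.12 in all 3 comparisons with isotype. For complex I they were 0.01 in anti-Lag3, 0.05 in anti-PD-L1 and 0.06 in CB. For complex II they were -0.07, -0.08 and -0.13, and for complex III 0.07, 0.12 and 0.11. For complex IV they were -0.08, -0.02 and -0.12, and for complex V -0.05, -0.01 and -0.12 in the same order. The 9 mitochondrially encoded genes gave 0.06, -0.02 and -0.00, and all genes tested gave 0 in each. With 1 mouse left out, the mitochondrial median of CB over isotype ranged from -0.16 to 0.13.

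**Figure D5:**
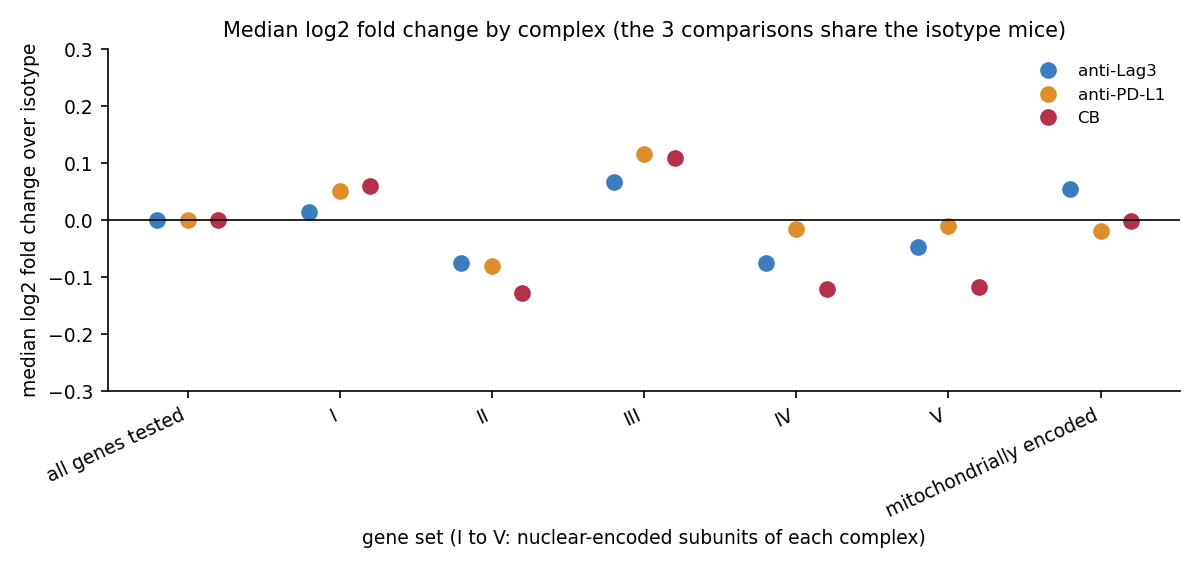
Median log2 fold change over isotype of the nuclear subunits of each complex and of the mitochondrially encoded genes, beside all genes tested, for anti-Lag3, anti-PD-L1 and CB. No error is drawn, since genes are not replicates; all medians lie between -0.13 and 0.12.

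Genes around the respiratory chain were followed in 5 lists. Between CB and isotype, edgeR called 4.29% of all genes, 14.9% had an unadjusted p under 0.05, and DESeq2 called 918 genes. Of 36 further assembly factors, of complex I (such as Nubpl and Timmdc1) and of the other complexes, 0 were called between CB and isotype by edgeR, with 8 at an unadjusted p under 0.05 and 0 by DESeq2 (5 without an adjusted p), 23 above 0 and a median of 0.12. All 18 genes of pyruvate dehydrogenase and the citric acid cycle were within 1.5-fold, with 0 called by either tool, 0 at an unadjusted p under 0.05 and a median of 0.00. Of 13 genes of coenzyme Q synthesis 0 were called by either tool (3 without an adjusted p in DESeq2), with 1 at an unadjusted p under 0.05 and a median of -0.14.

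In the list of mitochondrial gene expression and biogenesis 3 of 22 tested genes were called (13.6%, against 4.29% of all genes), 2 higher and 1 lower. DESeq2 called 2 of the 22 and 918 of all genes, and gave 9 of the 22 no adjusted p. Pprc1, a coactivator of the PGC-1 family, measured 15.9, 15.3 and 11.1 CPM in isotype mice, 17.6, 20.4 and 21.3 in anti-Lag3, 24.9, 17.3 and 26.9 in anti-PD-L1 and 28.3, 36.3 and 40.9 in CB, and rose by 1.32 in CB (SE 0.26, adjusted p = 0.00226, edgeR). Lrpprc, which stabilises mitochondrial mRNAs, measured 99.1, 91.8 and 86.0 CPM in isotype, 112, 107 and 108 in anti-Lag3, 133, 116 and 105 in anti-PD-L1 and 144, 140 and 151 in CB, and rose by 0.66 (SE 0.12, adjusted p = 0.00161). In both genes the 3 CB mice were above all 9 others. Esrra, a nuclear receptor that acts on respiratory genes, measured 6.69, 11.2 and 11.8 CPM in isotype and 3.14, 3.08 and 2.44 in CB, and fell by 1.78 on the log2 scale (SE 0.50, adjusted p = 0.0385, edgeR). That call ends without CB mouse 1 (-1.84, adjusted p = 0.0969), 2 (-1.82, 0.0869) or 3 (-1.67, 0.155) or isotype mouse 2 (-1.68, 0.133) or 3 (-1.63, 0.132). Nrf1 (-0.22) and Tfam (0.00), further regulators of the nuclear and mitochondrial genes, had adjusted p-values of 0.557 and 1.

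Of 7 carriers of ADP, ATP and phosphate, 2 were called, both lower in CB, with 1.96% of all genes called lower. Slc25a5, the ADP/ATP carrier of dividing cells, measured 513, 509 and 582 CPM in isotype, 529, 434 and 502 in anti-Lag3, 372, 449 and 483 in anti-PD-L1 and 398, 458 and 303 in CB. It fell by 0.47 on the log2 scale (SE 0.12, adjusted p = 0.0220, edgeR). Ucp2, a carrier of the same family, measured 163, 157 and 146 CPM in isotype and 93.6, 127 and 109 in CB and fell by 0.50 (SE 0.14, adjusted p = 0.0358). The Slc25a5 call ends without CB mouse 3 (-0.32, adjusted p = 0.212) or isotype mouse 3 (-0.41, 0.0962). The Ucp2 call ends without CB mouse 1 (-0.40, 0.199) or 3 (-0.50, 0.124) or isotype mouse 1 (-0.47, 0.128) or 2 (-0.49, 0.102). DESeq2 called 3 of the 7 carriers between CB and isotype, and 918 of all genes. None of the genes in the 5 lists was called by edgeR in the other 6 tests. DESeq2 called 1 gene of the biogenesis list between CB and anti-Lag3 (280 of all genes).

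Promoters of the nuclear genes shared letters that the choice of genes did not use. RefSeq windows of 250 bases before to 50 after the start (GRCm38.p6) were matched for 75 of the 90 genes and searched on both strands. The core of the NRF1 motif, GCGCATG, was found in 16 of 75 (21.3%), against 4.41% of 27025 genes, and it can overlap itself on the other strand. The ETS motif CCGGAAG stood in 18 of 75 (24%) against 9.93%, the YY1 core ATGGCGG in 12 of 75 (16%) against 4.69%, and the E-box CACGTG in 6 of 75 (8%) against 8.09%. The 27025 genes outnumber the 15138 tested for expression, so they include genes outside the tested set. Whether the members differ in these shares from the tested genes alone was not tested. The promoters of Ndufaf4 and Cycs held the NRF1 core and that of Ndufa3 held none of the 4 motifs, which says nothing about binding. Stretches of 120 bases around the first match are shown for Ndufaf4, a called gene, and for Cycs, with the matches in capitals.
Ndufaf4, chr4:24897915-24898034, plus strand: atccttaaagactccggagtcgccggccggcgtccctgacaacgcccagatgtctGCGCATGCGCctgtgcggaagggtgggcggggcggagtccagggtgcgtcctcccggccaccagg
Cycs, chr6:50566570-50566689, minus strand: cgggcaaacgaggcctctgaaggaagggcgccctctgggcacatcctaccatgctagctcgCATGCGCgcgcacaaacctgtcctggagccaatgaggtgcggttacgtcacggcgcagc
The first match begins 113 bases before the start of Ndufaf4 and 59 bases before that of Cycs, as RefSeq gives it.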

How the data were processed

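Messenger RNA 3′ ends were sequenced from 12 libraries (16449370 to 22151025 reads on genes). The authors trimmed reads with Cutadapt 1.18, mapped them with STAR 2.6.1a to GRCm38, counted uniquely mapped reads per gene with featureCounts 1.6.4 and deposited raw counts, which were used here; strand setting and annotation release are not given in the sources used here. Unique mapping removes reads shared with gene copies. Deposited rlog values were not used.

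Symbols came from GENCODE vM21. Genes with at least 30 reads in sum (15138) were fitted with edgeR 4.0.16 in R 4.3.3 (TMM, 4 group means, no covariates, quasi-likelihood F-tests in 7 comparisons, Benjamini-Hochberg adjustment). Intervals are 95%. The fit was tested on simulated data with 200 changed genes. Alternatives were DESeq2 1.42.0 (also against 0.2, with an ashr 2.2.63 s value under 0.005), edgeR against 0.2, other scaling, filters and samples, and a replicate block.

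Members, lists and motif letters were chosen with earlier results of these data known. Named genes are all mitochondrial members, all called members, the 8 largest and 8 smallest differences between CB and isotype at a mean count of at least 30, isoform sets, Sdha to Sdhd, Cycs, Cyc1 and called list genes; the F1 head genes, Impdh2, Smim15, Nrf1, Tfam and Ndufa7 were named after their values were seen. Mice were sorted 4 at a time with each group represented, and neither labels nor methods tie a replicate number to a sort. The paper attributes a component of its expression data largely to sort batches, and the main fit holds no term for them. P-values compare group differences with the spread between these mice within groups.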

Additional observations from a re-analysis of the deposited data

How the results depend on the processing

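Counts of called genes among the 99 were small and moved with the fit, as those over all genes did. Between CB and isotype 3 were called (649 of all genes), 6 by DESeq2's Wald test (918), 0 by DESeq2 against 0.2 with an s value (199), 1 by edgeR against 0.2 (Ndufaf4; 364), 6 with no filter on low counts (818) and 0 to 5 with 1 mouse left out (394 to 705; 0 without CB mouse 3 or isotype mouse 2, 5 without CB mouse 2). For CB against anti-PD-L1 the count of 0 (56 of all genes) became 1 by DESeq2 (178), 1 at a mean count of at least 30 (62) and 2 with no filter (150). For CB against anti-Lag3 the count of 0 (105 of all genes) became 1 by DESeq2 (280), 4 with no filter (252) and 0 to 1 with 1 mouse left out (Ndufaf4 without CB mouse 2, 0.97, and Atp5s without anti-Lag3 mouse 2). The cause was not tested.

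Deviations of same-numbered mice correlated at -0.0428 to 0.0503 (median 0.0155, against -0.0047 for different numbers), and 9 of 12 mice correlated best with their own number, a hint from the data and not from the design. Whether a number marks a sort batch is not stated. A replicate block gave 4 calls for CB against isotype (843 of all genes, against 649 without it), 1 between CB and anti-PD-L1 (Ndufa7, -0.57; 137 of all genes against 56) and 1 between CB and anti-Lag3 (Ndufc2, -0.44; 208 against 105).

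The nuclear median between CB and isotype, -0.05, ranged from -0.0627 to -0.0202 with 1 mouse left out, and the mitochondrial median, -0.00, from -0.16 to 0.13. Without the most counted gene in the total, mitochondrial shares were 1.83% in isotype, 1.91% in anti-Lag3, 1.82% in anti-PD-L1 and 1.76% in CB.

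Of 42 named genes, 28 kept the direction of their difference between CB and isotype in every alternative run. The other 14, all near 0 or poorly counted, crossed 0 with 1 mouse left out: Atp5g1 (-0.26 to 0.077), Atp5g2 (-0.97 to 0.14), Atp5g3 (-0.0123 to 0.0068), Atp5l (-0.90 to 0.55), Cox4i1 (-0.16 to 0.033), Cox6b2 (-1.79 to 0.17), Cox7a2 (-0.0076 to 0.11), Sdha (-0.17 to 0.0018), Sdhb (-0.0093 to 0.18), mt-Co1 (-0.0054 to 0.17), mt-Nd1 (-0.082 to 0.082), mt-Nd2 (-0.16 to 0.14), mt-Nd4 (-0.23 to 0.13) and mt-Nd5 (-0.075 to 0.26). mt-Nd1 was also 0.00030 with no filter, and mt-Nd2 -0.0019 by DESeq2, by DESeq2 against 0.2 and with DESeq2 size factors. With 3 mice a group and no molecular identifiers, members with few reads, such as mt-Nd3, mt-Nd6, Cox6b2 and Atp5l, were not bounded within 1.5-fold.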
